A study of Mus musculus with 38 samples.

Results

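The response of Ppara-null intestinal organoids to GW501516 (GW), a compound that activates the fatty acid receptor PPARδ, was measured across all genes. The members are 10 of the 37 libraries used in the series, chosen by the genotype and treatment in the column names of the count table. 5 came from GW-treated and 5 from vehicle-treated organoids labelled Ppara-null, which are called A here. GW was given at 1 uM in 0.1% DMSO, and the vehicle was 0.1% DMSO alone. The mice were of the C57BL6 strain, and the labels give no age. Crypts were embedded in 65% matrigel and kept as organoids for 8 days and 2 passages, so the libraries hold mixed epithelium of a culture and not sorted cells. The other genotypes were set beside A where they bear on it: wild type (WT, 5 GW and 5 vehicle libraries), mice labelled Ppard-fl/fl and Ppara-null together (DA, 5 and 4) and mice labelled Ppard-fl/fl (D, 3 and 5). The series' design text calls these knockouts, and the labels name no recombinase and no Cre driver. Nothing in the labels says whether libraries of a group came from separate mice or cultures, so p-values measure the spread between these libraries only, which may be technical.

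PPARα and PPARδ belong to a family of fatty acid sensors that bind DNA as partners of the retinoid X receptors. They share many target genes, among them those of fatty acid uptake, of the carnitine shuttle that carries long-chain fatty acids into mitochondria, and of β-oxidation in mitochondria and peroxisomes. In the intestine both receptors are active in the epithelium, where dietary fat is taken up, bound by small carrier proteins and burned or packed into chylomicrons. An agonist of PPARδ in organoids that lack Ppara asks which of these genes respond without PPARα.

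RNA was read by 3′ digital gene expression, which counts tags near the 3′ end of polyadenylated transcripts. Total counts were 396214 to 514691 per library with GW and 423650 to 546639 with vehicle, and 10081 to 10968 and 10337 to 11070 genes had a count. CPM below is a library's count scaled to a total of 1e+06, a level that is not corrected for length. Library numbers in the column names fell into 2 ranges, 1 to 36 and 37 to 60, with 3 and 2 libraries in each group. The first principal component of the 10 libraries, with 27.7% of the variance, separated these ranges and not the treatments. Xist had more counts than the Y-linked genes together in 2 of 5 GW libraries (16 and 22) and in 3 of 5 vehicle libraries (12, 21 and 29). In the 4 libraries of the second range and in GW library 5, whose column carries an unexplained suffix 2, Y-linked counts exceeded Xist, so library number and sex cannot be fully told apart. No 2 libraries of a group were copies: their counts differed by 1.86 to 5.61 in chi-square per degree of freedom.

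The receptors were measured at very low levels. Ppara, the gene labelled null, had 1, 2, 0, 3 and 2 counts in GW libraries 5, 16, 22, 43 and 55, against 2, 0, 2, 2 and 3 counts in vehicle libraries 12, 21, 29, 39 and 51. These were 3.30 ± 2.29 CPM with GW and 3.64 ± 2.14 CPM with vehicle (SD, n = 5 each), where WT organoids had 16.4 ± 8.06 and 17.3 ± 7.08 CPM. Whether the remaining 3′ tags lie outside the deleted part is not known from the labels. Ppard, which encodes the receptor GW binds, had 0, 0, 0, 4 and 0 counts with GW and 1, 1, 3, 3 and 1 counts with vehicle, too few for the test. Pparg, the third receptor of the family, had 24.9 ± 8.54 CPM with GW and 22.9 ± 5.72 CPM with vehicle. The retinoid X receptor genes Rxra and Rxrb had 0 to 4 counts per library, and Rxrg had 0 throughout.

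GW raised 14 genes in A and lowered 1, of 4902 tested. That is 0.286% higher and 0.0204% lower, or 0.306% in all, at an adjusted p under 0.05 (quasi-likelihood test of edgeR, adjusted after Benjamini and Hochberg). At an unadjusted p under 0.05 there were 176 genes (3.59%), of which 100 were higher (2.04%) and 76 lower (1.55%). The median log2 fold change over all tested genes was 0.00, with 2452 higher and 2450 lower. Leaving out 1 library at a time moved the number of calls between 6 and 15, with 6 without GW library 55, 8 without vehicle library 12 and 9 without vehicle library 39. The column names repeat the order of treatments in 6 sets of consecutive library numbers, and with these sets as a block 19 genes were called, all 15 among them (chosen after seeing the data). The genes that rose and are described here were nearly all lipid genes. They were the mitochondrial carnitine carrier Slc25a20, 5 genes listed under mitochondrial β-oxidation (Eci2, Acadl, Hadha, Hadhb, Acaa2) and 2 listed under peroxisomes (Pxmp4, Crot). The others were the acyl-CoA thioesterase Acot1, the fatty acid carrier Fabp1, the monoacylglycerol lipase Abhd6, the lipase inhibitor Angptl4 and the aldo-keto reductase Akr1b8. For 11 of these 13 every GW library was above every vehicle library, which held for 22 of all tested genes (0.449%). The single lowered call was a ribosomal pseudogene, Rps19-ps6.

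**Figure D1:**
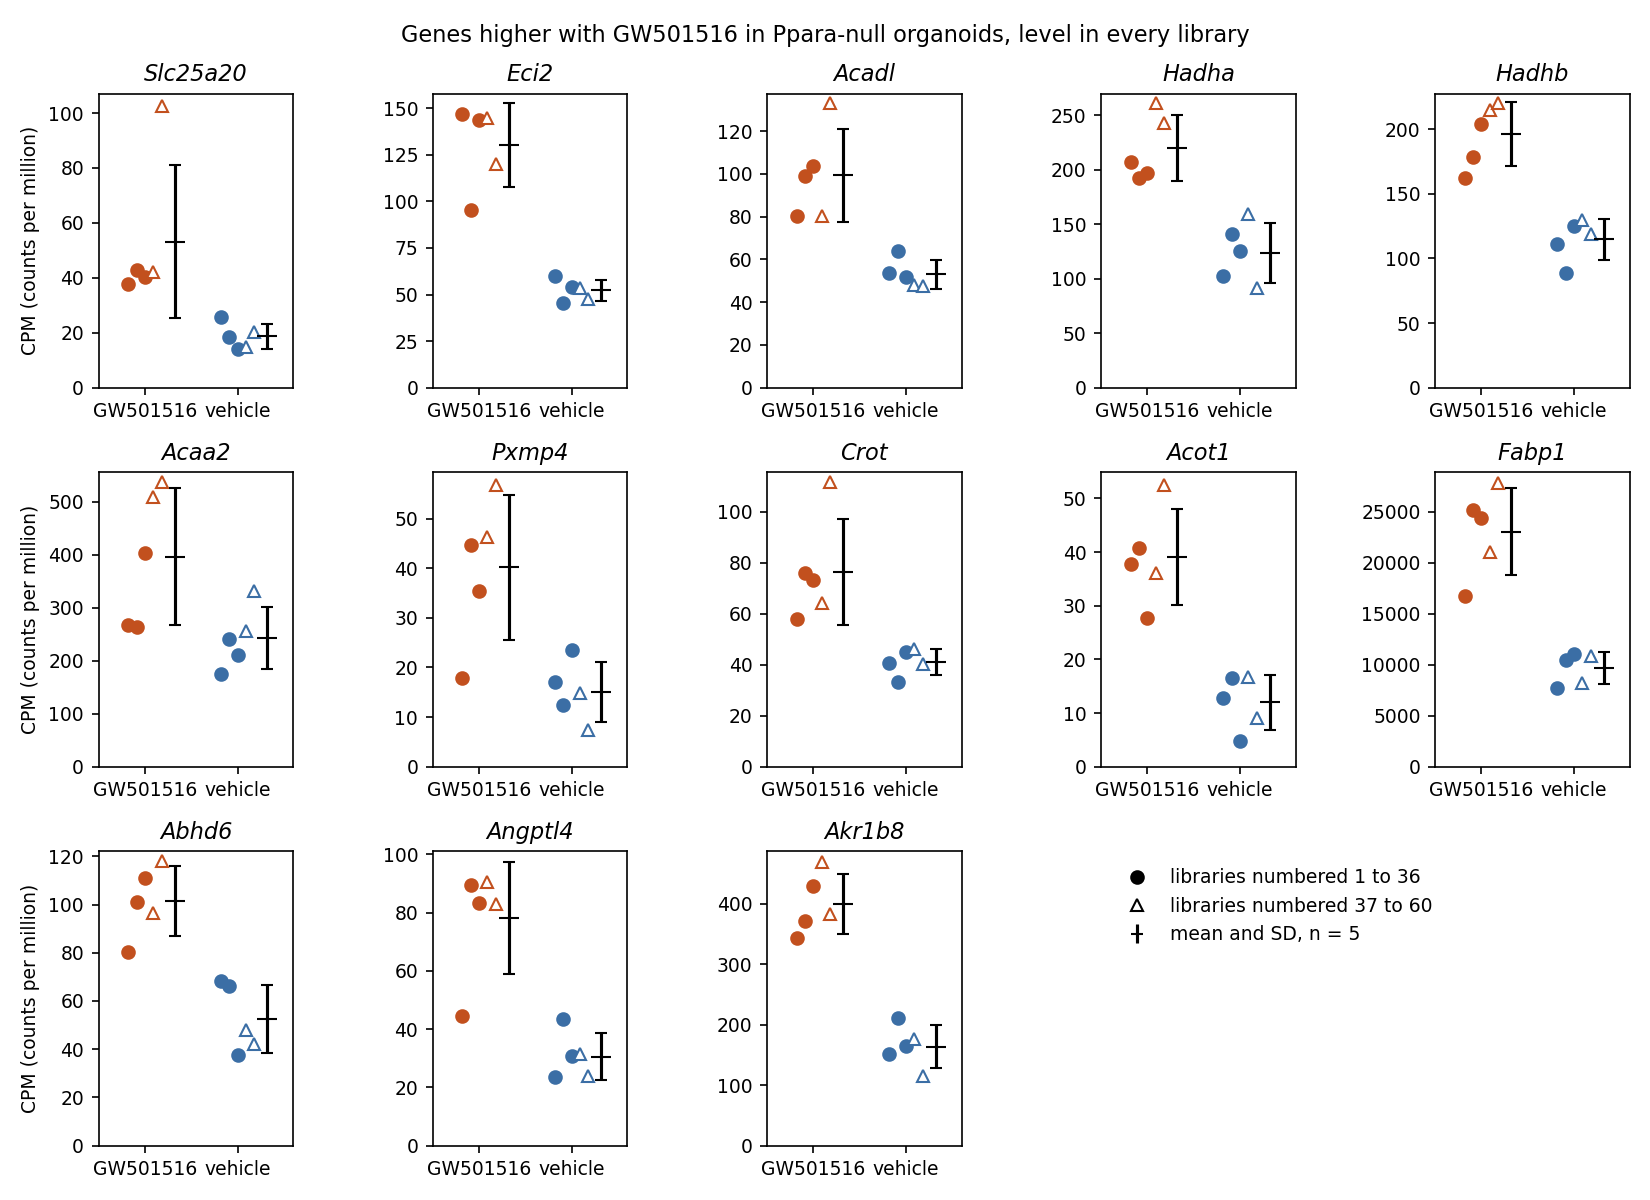
Level of the 13 described genes that rose, in CPM (y axis from 0), in each of the 5 GW501516 and 5 vehicle libraries of Ppara-null organoids, with the mean and SD beside them. Circles are libraries numbered 1 to 36 and triangles 37 to 60. The groups overlap only for Pxmp4, where GW library 5 had 17.8 CPM, and Acaa2, where GW libraries 5 and 16 had 267 and 264 CPM.

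The step into mitochondria was represented by Slc25a20, whose carrier exchanges acylcarnitines for carnitine across the inner membrane (chromosome 9, 108662088 to 108684641, plus strand, mm10). It had 37.8, 42.7, 40.4, 42.2 and 103 CPM in GW libraries 5, 16, 22, 43 and 55, against 25.6, 18.6, 14.2, 14.8 and 20.1 CPM in vehicle libraries 12, 21, 29, 39 and 51. All GW libraries were above all vehicle libraries, and GW library 55 stood far above the other 4. Slc25a20 rose by a log2 fold change of 1.52 ± 0.30 (SE; edgeR quasi-likelihood, Benjamini-Hochberg adjusted p = 0.00789). Without library 55 the log2 fold change was 1.17 and the adjusted p 0.110. Cpt1a, which makes the acylcarnitines at the outer membrane and is the rate-limiting enzyme of the shuttle, had 28.9, 35.0, 27.8, 46.2 and 28.4 CPM with GW, against 15.0, 18.6, 7.08, 27.8 and 12.8 CPM with vehicle. 4 of the 5 GW libraries were above the highest vehicle library, 39. Cpt1a had a log2 fold change of 1.04 ± 0.29 and did not pass (edgeR quasi-likelihood, Benjamini-Hochberg adjusted p = 0.212). Cpt2, its partner at the inner membrane, had 0.35 ± 0.41, and its sign turned to -0.10 within libraries 37 to 60 and to -0.01 without GW library 16. Of the 6 listed shuttle genes only these 3 had enough counts for the test, and Cpt1b, the muscle form, had no counts in A.

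Of 15 tested genes listed under mitochondrial β-oxidation 12 were higher and 3 lower with GW. Their median log2 fold change was 0.41, and 5 passed. Where their proteins act in the cell was not measured. Eci2, an isomerase for unsaturated fatty acids (chromosome 13, 34977748 to 35027096, minus strand), had 147, 95.2, 144, 145 and 120.2 CPM with GW, against 59.8, 45.5, 54.3, 53.7 and 47.6 CPM with vehicle, in the library order above. The lowest GW library lay well clear of the highest vehicle library. Eci2 rose by 1.35 ± 0.18 on the log2 scale (edgeR quasi-likelihood, Benjamini-Hochberg adjusted p = 5.78e-06), and it passed in each of the 22 alternative analyses. Hadha and Hadhb encode the α and β subunits of the mitochondrial trifunctional protein, which carries out the last 3 steps of the cycle on long chains. The genes lie head to head on chromosome 5, with 86 bases between their annotated starts (Hadha, 30118304 to 30155162, minus strand, and Hadhb, 30155248 to 30184593, plus strand). Hadha had 207, 192, 197, 261 and 243 CPM with GW, against 103, 141, 125, 159 and 91.5 CPM with vehicle. Hadhb had 162, 179, 204, 215 and 221 CPM with GW, against 111, 88.9, 125, 129.7 and 119 CPM with vehicle. The groups did not overlap for either subunit, and the log2 fold changes were close, 0.86 ± 0.19 for Hadha (Benjamini-Hochberg adjusted p = 0.0242, edgeR quasi-likelihood) and 0.80 ± 0.13 for Hadhb (adjusted p = 7.01e-04). Hadha lost its call without any 1 of 4 libraries (GW 43 or 55, vehicle 12 or 51), whereas Hadhb passed in all 10 such fits.

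The dehydrogenases that take the first step of each cycle gave 1 call among the 4 tested. Acadl, the long-chain enzyme, had 80.1, 99.1, 103, 80.4 and 133 CPM with GW, against 53.4, 64.1, 51.9, 48.2 and 47.6 CPM with vehicle. The groups did not overlap, and Acadl rose by 0.93 ± 0.22 (edgeR quasi-likelihood, Benjamini-Hochberg adjusted p = 0.0455). The call held without GW library 5 or 43 or vehicle library 21 and was lost without any 1 of the other 7 (adjusted p up to 0.256). Acadvl, the very-long-chain enzyme, had 51.2, 46.6, 53.0, 74.4 and 67.7 CPM with GW, against 27.8, 28.9, 28.3, 40.8 and 40.2 CPM with vehicle. Its groups did not overlap either, yet its log2 fold change of 0.83 ± 0.23 did not pass (edgeR quasi-likelihood, Benjamini-Hochberg adjusted p = 0.165). Acadm, the medium-chain enzyme, had -0.13 ± 0.19, and the related Acad11 -0.16 ± 0.42. The short-chain enzyme Acads had 10 counts in all with GW and 11 with vehicle, too few to test. The differences between these enzymes' responses were not tested. Acaa2, the mitochondrial thiolase that splits off acetyl-CoA, had 267, 264, 404, 509 and 537 CPM with GW, against 175, 242, 210.1, 256 and 331 CPM with vehicle. Vehicle library 51 lay above 2 GW libraries, and in both groups the libraries of the second range were the highest. Acaa2 rose by 0.73 ± 0.16 (edgeR quasi-likelihood, Benjamini-Hochberg adjusted p = 0.0296). Its log2 fold change was 0.61 within libraries 1 to 36, which did not pass alone, and 0.86 in the later range. The call held without GW library 5 or 16 or vehicle library 51 and was lost without any 1 of the other 7 (adjusted p up to 0.212). The electron acceptors of the cycle, Etfa (0.45 ± 0.20) and Etfb (0.33 ± 0.15), and their dehydrogenase Etfdh (0.41 ± 0.28) had smaller log2 fold changes that did not pass. Echs1, the short-chain hydratase, had -0.08 ± 0.14, and Hadh, the short-chain hydroxyacyl-CoA dehydrogenase, 0.03 ± 0.21.

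Of 16 tested genes listed under peroxisomal fatty acid metabolism 14 were higher and 2 lower, and 2 passed. Their median log2 fold change was 0.29 (0.15 to 0.38 over the alternative analyses). Pxmp4, a peroxisomal membrane protein (chromosome 2, 154585758 to 154603708, minus strand), had 17.8, 44.7, 35.3, 46.2 and 56.8 CPM with GW, against 17.1, 12.4, 23.6, 14.8 and 7.32 CPM with vehicle. GW library 5 lay within the vehicle range and the other 4 above it. Pxmp4 rose by 1.47 ± 0.33 (edgeR quasi-likelihood, Benjamini-Hochberg adjusted p = 0.0296). Its log2 fold change was 0.94 within libraries 1 to 36, which did not pass alone, and 2.22 in the later range. The call held without GW library 5 or 22 or vehicle library 29 and was lost without any 1 of the other 7 (adjusted p up to 0.163). Crot, which moves medium-chain acyl groups onto carnitine for export from peroxisomes, had 57.9, 75.8, 73.2, 64.3 and 111 CPM with GW, against 40.6, 33.1, 44.8, 46.3 and 40.2 CPM with vehicle. The groups did not overlap, and Crot rose by 0.93 ± 0.21 (edgeR quasi-likelihood, Benjamini-Hochberg adjusted p = 0.0296). It was lost in the fits without GW library 16, 22 or 55 or vehicle library 12, 21, 39 or 51 (adjusted p up to 0.244). Among other peroxisomal genes that did not pass, Ehhadh, a bifunctional enzyme, had -0.09 ± 0.30, and the thiolase Acaa1a 0.04 ± 0.32. Abcd3, which imports acyl-CoAs into peroxisomes, had 0.47 ± 0.19, and Pex11a, which divides them, 0.63 ± 0.52, and neither passed.

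Acot1, a cytosolic enzyme that splits acyl-CoA into free fatty acid and coenzyme A (chromosome 12, 84009490 to 84018371, plus strand), had the largest log2 fold change of the described genes that rose. It had 37.8, 40.8, 27.8, 36.2 and 52.4 CPM with GW, against 12.8, 16.5, 4.72, 16.7 and 9.15 CPM with vehicle, which were 91 and 30 counts in all. The groups did not overlap, and Acot1 rose by 1.70 ± 0.34 (edgeR quasi-likelihood, Benjamini-Hochberg adjusted p = 0.00811). Without GW library 55 the adjusted p was 0.0560. Acot1 shares sequence with its paralogue Acot2: of the 31-base words in the last 500 bases of its transcripts, 31.1% also occur there. The authors' counting could therefore split reads between them. Acot2 held 10 counts with GW and 3 with vehicle, and how shared reads were assigned was not tested. Of the other thioesterases Acot13 had -0.03 ± 0.18, Acot9 0.16 ± 0.23 and Them4 0.22 ± 0.32, and Acot3 and Acot5 had no counts. 4 of the 5 tested thioesterases were higher and 1 lower, with a median of 0.16 that ran from 0.02 to 0.33 over the alternative analyses.

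Fabp1, the liver-type fatty acid binding protein, was among the most abundant transcripts and took 1.68% to 2.78% of the counts with GW, against 0.775% to 1.11% with vehicle (chromosome 6, 71199827 to 71205023, plus strand). It had 16753, 25129.6, 24388, 21059.7 and 27842 CPM with GW, against 7755, 10423, 11075, 8247 and 10877 CPM with vehicle. The lowest GW library stood above the highest vehicle library by more than the whole vehicle range. Fabp1 rose by 1.28 ± 0.29 (edgeR quasi-likelihood, Benjamini-Hochberg adjusted p = 0.0296). Its log2 fold change was 1.22 within libraries 1 to 36, which did not pass alone, and 1.38 in the later range. The same 7 omissions as for Crot ended its call (adjusted p up to 0.141), while its log2 fold change stayed between 1.21 and 1.37 over all 10 omissions. Fabp2, the intestinal-type binding protein, had 2856, 3233, 3607, 3025 and 4654 CPM with GW, against 1628, 2561, 2398, 1684 and 2384 CPM with vehicle. These groups did not overlap either, but the log2 fold change of 0.73 ± 0.19 did not pass (edgeR quasi-likelihood, Benjamini-Hochberg adjusted p = 0.163). With library sets as a block it was 0.78 and passed (adjusted p = 0.00215). Dbi, which binds acyl-CoA, had 0.21 ± 0.17 and Fabp5, the epidermal form, 0.04 ± 0.26. The fatty acid transporter Cd36 had 19 counts with GW and 10 with vehicle and was not tested. In bulk libraries more cells of a type that holds a transcript and more of it per cell cannot be told apart.

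PPARs bind with a retinoid X receptor to a direct repeat of a hexamer spaced by 1 base, and the promoter windows of the genes that rose were searched for it. The windows were those of RefSeq (GRCm38.p6), 250 bases before to 50 after a gene's start, and the motif was AGGTCA, 1 base of any kind and AGGTCA again, with at most 2 mismatches on either strand. Of all 32851 windows 3.86% held such a match, and 0.554% one with at most 1 mismatch. 11 of the 14 described calls had a window, and Angptl4, Acaa2 and Rps19-ps6 had none in the table. The match was present in 2 of the 11, Fabp1 and Slc25a20, whose windows are shown with the matched bases in capitals. A match describes these letters and is neither a site nor a cause, and the absence of a match says only that these letters are not in the window.
Fabp1 (chr6:71199629-71199928, plus strand): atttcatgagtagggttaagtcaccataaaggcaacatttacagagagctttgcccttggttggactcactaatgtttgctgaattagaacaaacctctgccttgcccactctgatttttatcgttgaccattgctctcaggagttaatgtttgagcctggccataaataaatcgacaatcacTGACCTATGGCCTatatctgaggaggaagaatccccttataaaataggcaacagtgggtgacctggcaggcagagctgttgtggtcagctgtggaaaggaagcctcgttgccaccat
Slc25a20 (chr9:108661886-108662185, plus strand): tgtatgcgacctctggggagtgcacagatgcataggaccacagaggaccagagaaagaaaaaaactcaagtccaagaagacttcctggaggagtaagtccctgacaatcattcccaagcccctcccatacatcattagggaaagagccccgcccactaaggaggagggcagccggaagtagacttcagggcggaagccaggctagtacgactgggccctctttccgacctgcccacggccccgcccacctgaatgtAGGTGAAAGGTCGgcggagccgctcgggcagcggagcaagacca
The Fabp1 match had 1 mismatch, read on the minus strand, and began 67 bases before the RefSeq start. The Slc25a20 match had 2 mismatches, read on the plus strand, and began at base 7 of the transcript.

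Abhd6, which hydrolyses monoacylglycerols (chromosome 14, 8002902 to 8056763, plus strand), was the only gene of lipid droplets and lipases to pass. It had 80.1, 101, 111, 96.5 and 118 CPM with GW, against 68.4, 66.1, 37.8, 48.2 and 42.1 CPM with vehicle. The groups did not overlap, and Abhd6 rose by 0.98 ± 0.19 (edgeR quasi-likelihood, Benjamini-Hochberg adjusted p = 0.00789). The log2 fold change was 0.79 within libraries 1 to 36 and 1.27 in the later range, and neither range alone passed. Plin2, which coats lipid droplets, had 48.97, 64.1, 116, 62.3 and 63.4 CPM with GW, against 38.5, 41.3, 44.8, 42.6 and 64.0 CPM with vehicle. The groups overlapped through vehicle library 51, and the log2 fold change of 0.63 ± 0.27 did not pass, with 0.90 in the earlier and 0.26 in the later range of library numbers. Hilpda, an inhibitor of the droplet lipase (0.72 ± 0.31), and Lipa, the lysosomal acid lipase (0.61 ± 0.25), did not pass either. Of the 10 tested genes of this list 7 were higher and 3 lower, with a median of 0.12 that ran from 0.01 to 0.34 over the alternative analyses.

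Angptl4, a secreted inhibitor of lipoprotein lipase (chromosome 17, 33773750 to 33781830, minus strand), had 44.5, 89.4, 83.3, 90.4 and 83.0 CPM with GW, against 23.5, 43.4, 30.7, 31.5 and 23.8 CPM with vehicle. GW library 5 was far below the other 4 and only just above the highest vehicle library, 21. Angptl4 rose by 1.38 ± 0.24 (edgeR quasi-likelihood, Benjamini-Hochberg adjusted p = 0.00101), and without library 5 by 1.52. Creb3l3, a membrane-bound transcription factor of lipid genes, had 40.1, 68, 78.2, 74.4 and 109 CPM with GW, against 29.9, 18.6, 23.6, 35.2 and 49.4 CPM with vehicle. Only GW library 5 fell within the vehicle range, and the log2 fold change of 1.25 ± 0.30 came just short of the threshold (edgeR quasi-likelihood, Benjamini-Hochberg adjusted p = 0.0573), and passed with library sets as a block (adjusted p = 0.0158). Pdk4, a kinase that shuts off pyruvate dehydrogenase and a common PPAR target, had 8 counts with GW and 0 with vehicle and was not tested. Set against a floor of 3 counts over the vehicle group, the GW level was 2.84-fold higher. That fold leaves out the counting error of the 8 counts. Hsd17b11, a droplet-associated dehydrogenase (0.68 ± 0.18), Aldh3a2, which oxidises fatty aldehydes (0.80 ± 0.26), and Hsdl2, a peroxisomal dehydrogenase (0.79 ± 0.37), did not pass. Of these 3 Hsd17b11 passed with library sets as a block (adjusted p = 0.0344, edgeR). Of 10 tested PPAR targets outside the other lists 7 were higher and 3 lower, with a median of 0.53.

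Akr1b8, an aldo-keto reductase that reduces lipid aldehydes (chromosome 6, 34354119 to 34368463, plus strand), belonged to none of the lists. It had 343, 371, 429, 468 and 382 CPM with GW, against 152, 211, 165, 176 and 115 CPM with vehicle. The groups did not overlap, and the log2 fold change was 1.15 within libraries 1 to 36 and 1.58 within 37 to 60. Akr1b8 rose by 1.31 ± 0.17 (edgeR quasi-likelihood, Benjamini-Hochberg adjusted p = 5.78e-06) and passed in each of the 22 alternative analyses. Its paralogue Akr1b10 shared 8.30% of the 31-base words and had 23 counts with GW and 25 with vehicle.

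Rps19-ps6, a processed pseudogene of the ribosomal protein gene Rps19 (chromosome 12, 110898114 to 110898551, plus strand), had 0 counts in each of the 5 GW libraries, against 49, 40, 35, 48 and 104 counts in vehicle libraries 12, 21, 29, 39 and 51. It was 86.5-fold lower with GW at a floor of 3 counts over the GW group (edgeR quasi-likelihood, Benjamini-Hochberg adjusted p = 0.0389). That fold leaves out the counting error of the vehicle group. Rps19-ps6 was the only tested gene at 0 in all GW libraries with 10 or more counts in each vehicle library. The call was lost in each of the 10 fits that left out 1 library, and DESeq2 did not make it (adjusted p = 0.353). In the other genotypes 16 of 27 libraries were at 0 and the remaining 11 had 12 to 59 counts, spread over GW and vehicle groups. Of the 31-base words of the pseudogene 99.5% occur in transcripts of other genes and 78.2% in those of Rps19, so its count is uncertain. Rps19 itself had 3367 ± 168 CPM with GW and 3503 ± 363 CPM with vehicle (SD, n = 5 each).

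**Figure D2:**
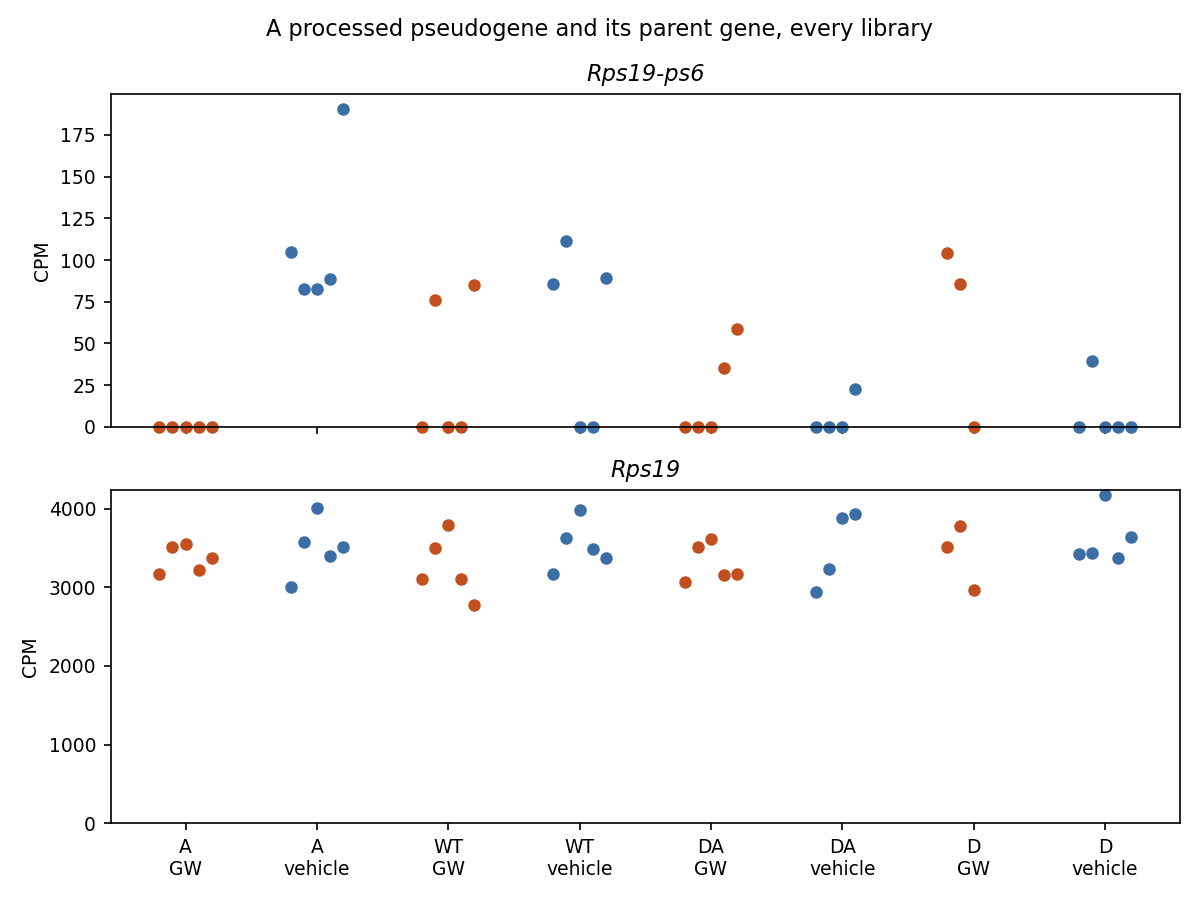
CPM of the pseudogene Rps19-ps6 (upper panel) and of its parent gene Rps19 (lower panel) in all 37 libraries, by genotype and treatment, GW501516 in orange and vehicle in blue. Rps19-ps6 is at 0 in all 5 GW libraries of A and in 16 of 27 libraries of the other genotypes, whereas Rps19 lies at a like level in all groups.

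Genes that package dietary fat showed higher values for some apolipoproteins. Apoa4, an apolipoprotein of chylomicrons, had 201 ± 55.9 CPM with GW and 112 ± 33.5 CPM with vehicle, a log2 fold change of 0.87 ± 0.29. Apoc2, the activator of lipoprotein lipase, had 473 ± 167 and 285 ± 67.7 CPM (0.75 ± 0.23), and Apob, the structural protein of the particle, had 0.58 ± 0.27. None passed, and the libraries of the groups overlapped for all 3. With library sets as a block Apoc2 passed at a log2 fold change of 0.78 (adjusted p = 0.0257, edgeR). Of 10 tested genes of chylomicron assembly 7 were higher and 3 lower, with a median of 0.20 (0.12 to 0.32 over the alternative analyses). Mttp, which loads lipid onto Apob, had 0.29 ± 0.20, and Apoa1 had -0.11 ± 0.20.

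No gene of lipid synthesis passed. Of 9 tested genes of fatty acid synthesis 6 were higher and 3 lower (median 0.04), and of 21 genes of cholesterol synthesis 10 were higher and 11 lower (median -0.09). The sign of both medians turned in some of the 22 alternative analyses, 7 and 4 of them. Me1, which supplies NADPH, had 31.7 ± 16.5 CPM with GW and 15.8 ± 5.35 CPM with vehicle, with GW library 5 at 6.68 CPM below every vehicle library and the other 4 above. The acyl-CoA synthetase Acsl3 had 49.98 ± 13.6 CPM with GW and 24.0 ± 10.5 CPM with vehicle, a log2 fold change of 1.08 ± 0.31 that did not pass (edgeR quasi-likelihood, Benjamini-Hochberg adjusted p = 0.255). Acsl5, the main form in these organoids by count, had 0.03 ± 0.14.

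Of 12 tested genes of glycolysis 11 were lower with GW and 1 higher, with a median of -0.28 and none passing. Hk2, the first kinase of the pathway, had 12.4 ± 4.82 CPM with GW and 25.6 ± 11.3 CPM with vehicle (-0.97 ± 0.50). Ldha, which makes lactate, had 3147, 3264, 2463, 3290.2 and 3362 CPM with GW, against 4391, 2319, 2969, 4776 and 5541 CPM with vehicle. Vehicle libraries 12, 39 and 51 were above every GW library, 29 lay within the GW range and 21 below it, so the groups overlapped. Its log2 fold change was -0.32 ± 0.22, with -0.08 within libraries 1 to 36 and -0.61 within 37 to 60. The median of the list ran from -0.59 to -0.09 over the alternatives. Pyruvate entry had 1 gene higher and 6 lower (median -0.10) and the citric acid cycle 4 higher and 12 lower (median -0.03), with none passing. Nuclear genes of oxidative phosphorylation had 32 higher and 41 lower (median -0.01) and cytoplasmic ribosomal proteins 33 and 45 (median -0.01). Of the 13 mitochondrially encoded proteins 12 were higher and 1 lower, with a median of 0.07, and mitochondrial transcripts took 7.55% to 9.77% of the counts with GW and 7.76% to 8.46% with vehicle.

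**Figure D3:**
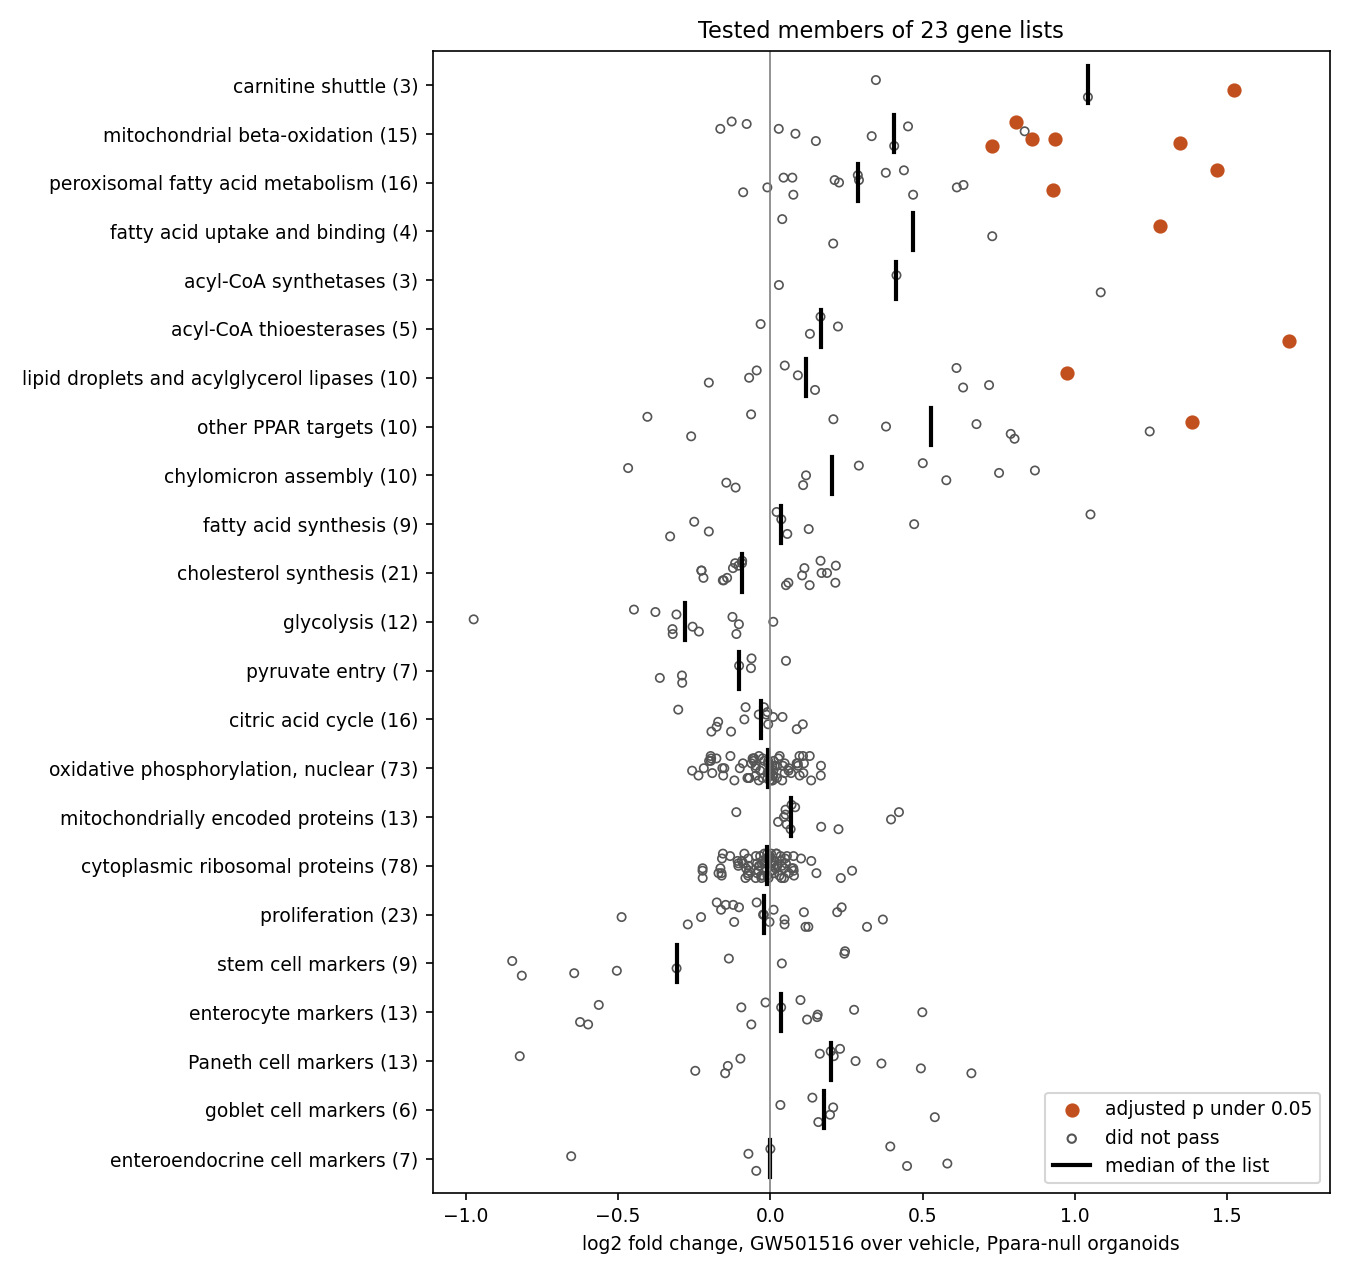
Log2 fold change of GW501516 over vehicle in Ppara-null organoids (x axis) for the tested members of 23 gene lists, with the number tested in brackets. Filled points passed at an adjusted p under 0.05, and bars mark each list's median. The passing genes lie in 6 lists of fatty acid handling and in the PPAR targets, and the medians of oxidative phosphorylation and ribosomal proteins lie at -0.01.

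Markers of the epithelial cell types are given so that they can be set beside the lipid genes. Olfm4, a marker of intestinal stem cells, had 51.2, 36.9, 42.9, 46.2 and 39.3 CPM with GW, against 124, 62.0, 56.7, 90.8 and 65.9 CPM with vehicle. Every GW library was below every vehicle library, which held for 19 of the tested genes (0.388%), of which 1 passed. Some genes separate in this way by chance, so the separation alone is no evidence of a change. The log2 fold change of Olfm4, -0.85 ± 0.29, did not pass (edgeR quasi-likelihood, Benjamini-Hochberg adjusted p = 0.693). Soat1, which esterifies cholesterol, and Aqp4, a water channel, both listed as stem cell markers, had -0.64 ± 0.29 and -0.82 ± 0.38 and did not pass. Lgr5, the receptor that defines these cells, had 11 counts in each group and was not tested. Of the 9 tested stem cell markers 3 were higher, by at most 0.25, and 6 lower. Their median of -0.31 ran from -0.58 to -0.12 over the alternative analyses. The summed level of all 19 listed was 253 to 416 CPM with GW and 329 to 474 CPM with vehicle.

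Enterocyte markers had 7 genes higher and 6 lower, with a median of 0.04 whose sign turned in 7 of the 22 alternative analyses. Sis, the brush border sucrase-isomaltase, had 119 ± 31.4 CPM with GW and 189 ± 30.8 CPM with vehicle (-0.63 ± 0.27), and Slc5a1, the glucose transporter, 66.7 ± 19.2 and 104 ± 32.6 CPM (-0.60 ± 0.28). Rbp2, the cellular retinol binding protein, had 146 ± 41.6 CPM with GW and 105 ± 33.4 CPM with vehicle (0.50 ± 0.22). None of the 3 passed. The summed level of the 18 enterocyte markers was 1004 to 1477 CPM with GW and 1187 to 1458 CPM with vehicle. Paneth cell markers had 8 higher and 5 lower (median 0.20), and goblet cell markers 6 higher and none lower (median 0.18), led by Zg16, a secreted lectin-like protein (0.54 ± 0.25). Enteroendocrine markers had 3 higher and 4 lower (median 0.00, from -0.65 to 0.58), with the hormone gene Gip lowest at -0.65 ± 0.28. Immune markers had no counts in A, 7 of 10 tuft cell markers were at 0, and 6 of 9 stromal markers were at 0, among them Col1a1, Col3a1 and Pdgfra. The stromal list's endothelial marker Pecam1 had 59 counts with GW and 71 with vehicle. The part of these marker levels in the lipid gene changes was not tested. Reg4, a secreted lectin that is in none of these marker lists, had 187 ± 98.0 CPM with GW and 93.7 ± 36.4 CPM with vehicle. Its log2 fold change of 1.02 ± 0.28 did not pass (edgeR quasi-likelihood, Benjamini-Hochberg adjusted p = 0.202).

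Lower values with GW came next in order of p for 3 genes, none of which passed. Bhlhe40, a transcriptional repressor of the clock and stress responses, had 11.1, 13.6, 10.1, 8.04 and 4.37 CPM with GW, against 34.2, 26.9, 16.5, 18.5 and 32.9 CPM with vehicle. Slc17a5, the lysosomal sialic acid exporter, had 24.5, 17.5, 30.3, 26.1 and 32.8 CPM with GW, against 62.0, 45.5, 35.4, 35.2 and 49.4 CPM with vehicle. In both genes every GW library was below every vehicle library, which held for 19 of all tested genes (0.388%) and can arise by chance. Their log2 fold changes were -1.39 ± 0.40 and -0.77 ± 0.23 (edgeR quasi-likelihood, Benjamini-Hochberg adjusted p = 0.255 and 0.426). D10Jhu81e had 9.32 ± 6.0 CPM with GW and 23.8 ± 8.23 CPM with vehicle (-1.35 ± 0.36), and its groups overlapped through vehicle library 29. Atf4, the transcription factor of the integrated stress response, had 50.7 ± 15.1 CPM with GW and 77.5 ± 6.40 CPM with vehicle (-0.57 ± 0.23), and did not pass.

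The response in A was set beside that in the other genotypes by testing the difference of the responses. By the same edgeR test with Benjamini-Hochberg adjustment no gene differed between A and WT, A and DA, or A and D, with 163 (3.33%), 149 (3.04%) and 113 (2.31%) at an unadjusted p under 0.05. DESeq2 called 0, 0 and 1, and limma-trend 0, 1 and 0. In WT GW raised 20 genes (0.408%), and 6.18% of all genes had an unadjusted p under 0.05. Of the 20 genes, 12 were among the 14 of A, which is 85.7% of the A genes and 60% of the WT genes. In DA and in D edgeR called 0 genes, with 157 (3.20%) and 159 (3.24%) at an unadjusted p under 0.05. Over the 14 genes that rose in A the median log2 fold change was 1.29 in A, 1.21 in WT, 0.09 in DA and 0.62 in D. With GW 14 of them were higher in WT, 10 in DA and 14 in D. An unadjusted p under 0.05 was reached by 13 in WT, 2 in DA and 9 in D (edgeR quasi-likelihood). These genes were chosen by their values in A, which favours A in each comparison.

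Against WT, the 2 genes of A that WT did not call were Acaa2, with 0.73 ± 0.16 in A and 0.32 ± 0.16 in WT, and Pxmp4, with 1.47 ± 0.33 in A and 0.80 ± 0.29 in WT. The differences were 0.40 (95% interval -0.06 to 0.86) and 0.67 (-0.22 to 1.56). Acot1 had 1.70 ± 0.34 in A and 2.78 ± 0.34 in WT, a difference of -1.08 (-2.12 to -0.04) that did not pass over all genes (edgeR quasi-likelihood, Benjamini-Hochberg adjusted p = 1.00). Acot1 levels were 39 ± 8.93 CPM with GW and 12 ± 5.10 CPM with vehicle in A, against 65.1 ± 26.6 and 8.96 ± 5.03 CPM in WT. Abhd6 likewise had 0.98 ± 0.19 in A and 1.54 ± 0.20 in WT, a difference of -0.57 (-1.13 to -0.01). Eci2, Hadha, Hadhb, Acadl, Crot and Fabp1 had differences from WT between -0.14 and 0.10. For Fabp1 the interval was -0.72 to 0.91. Fabp1 averaged 23035 ± 4263 CPM with GW and 9675 ± 1557 CPM with vehicle in A, against 38433 ± 14240.4 and 16578 ± 2352 CPM in WT (SD, n = 5 each).

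Against DA, which carries the same Ppara genotype label plus the floxed Ppard label, all 14 genes had the higher log2 fold change in A, by a median of 1.11. 13 of the 14 differences had an unadjusted p under 0.05, where 3.04% of all tested genes did, and none passed over all genes. The choice of these genes by their values in A favours A, here and against D. With library sets as a block Hadhb passed, at a difference of 0.91 (adjusted p = 0.0135, edgeR). Acot1 had 1.70 ± 0.34 in A and -0.59 ± 0.34 in DA, a difference of 2.29 (1.31 to 3.27; edgeR quasi-likelihood, Benjamini-Hochberg adjusted p = 0.151). Angptl4 had 1.38 ± 0.24 in A and 0.01 ± 0.24 in DA, a difference of 1.37 (0.68 to 2.07). Its levels were 78.1 ± 19.1 CPM with GW and 30.6 ± 8.09 CPM with vehicle in A (n = 5 each), against 50.8 ± 14.4 (n = 5) and 50.8 ± 4.46 CPM (n = 4) in DA. Abhd6 had 0.98 ± 0.19 in A and -0.26 ± 0.21 in DA, Fabp1 1.28 ± 0.29 and -0.02 ± 0.30, Crot 0.93 ± 0.21 and -0.08 ± 0.24, and Hadhb 0.80 ± 0.13 and 0.02 ± 0.14. Hadha, with 0.86 ± 0.19 in A and 0.45 ± 0.20 in DA, had the smallest difference, 0.41 (-0.15 to 0.96). Against D, all 14 were also higher in A, by a median of 0.52. 4 differences had an unadjusted p under 0.05, where 2.31% of all tested genes did. D had only 3 GW libraries. Column names do not say whether 1 of them belongs to the sample titled D but labelled DA. Eci2 had 1.35 ± 0.18 in A and 0.51 ± 0.19 in D, a difference of 0.83 (0.30 to 1.37; edgeR quasi-likelihood, Benjamini-Hochberg adjusted p = 0.999).

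**Figure D4:**
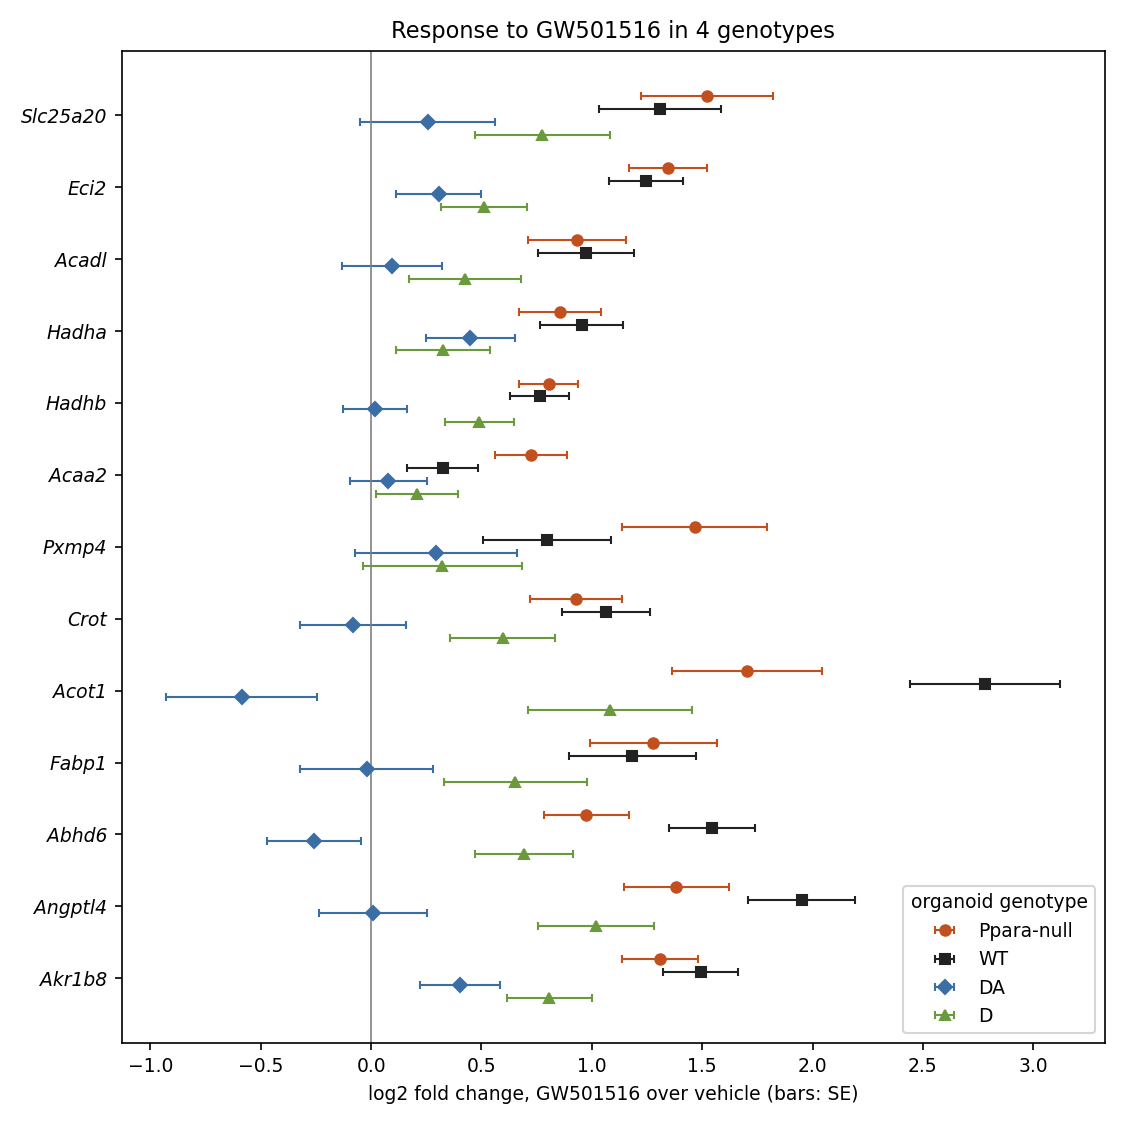
Log2 fold change of GW501516 over vehicle, with its SE, for the 13 described genes that rose in Ppara-null organoids, in 4 genotypes: Ppara-null (A), WT, DA and D. In A the circles lie between 0.73 and 1.70 by the choice of the genes, and in DA between -0.59 and 0.45.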

How the data were processed

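The authors deposited a table of estimated counts per gene and library (per the labels, 3′ digital gene expression of polyadenylated RNA). The submitters' processing notes name Salmon 1.1.0, R 3.6.2, edgeR 3.26.8 and mm10. The deposited log2 table holds values that sum to 1e+06 per library once taken back from log2, and it served only as a check. Estimated counts were rounded to whole numbers here. Columns were mapped to groups by their names, and 20 columns that could not be tied to a sample were not used. 1 sample titled as GW-treated D but labelled DA was put in no group. Column names do not say which of the GW columns of D is its own, and the one of them with a suffix 2 is among those not used. Members and gene lists were chosen with earlier results of these data known. The rule named every gene that passed, the next 10 by p and the receptors. It also named some genes fixed whatever their p, such as Cpt1a and Plin2, and up to 5 members of each list with the smallest p. Further list members, such as Acadm and Ehhadh, are named outside the rule. 1 gene that passed, and some members of the lists, are not reported here.

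All 8 groups of 37 libraries entered 1 model in edgeR 4.0.16 (R 4.3.3), with filterByExpr, TMM scaling, the quasi-likelihood test, Benjamini-Hochberg adjustment over 4902 genes and a threshold of 0.05. SE is the log2 fold change divided by the root of F. CPM is the count over the library total, not TMM-scaled. The column names carry no replicate number of the labels, and sets of consecutive library numbers were used as a block only as an alternative. DESeq2 1.42.0, limma 3.58.1, other filters and scaling, terms for library number range and sex and the omission of each library were alternatives. Totals of 396214 to 546639 counts per library of A leave genes with a few counts per library untested or imprecise. Floors cover only the counting error of the group at 0. Gene positions are from GENCODE vM21 (mm10).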

Additional observations from a re-analysis of the deposited data

Results flagged for a closer look

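For 27 groups of 5 libraries, over the described genes, the gap between the highest or lowest library and its nearest neighbour was compared with the group's range, a check that chance exceeds in about 1 of 20 groups. It picked out 3 libraries. Angptl4 in GW library 5 had 44.5 CPM, where the nearest of the other GW libraries had 83.0 CPM. Slc25a20 in GW library 55 had 103 CPM, where the nearest had 42.7 CPM. Without this library Slc25a20 lost its call, at a log2 fold change of 1.17 (edgeR quasi-likelihood, Benjamini-Hochberg adjusted p = 0.110). Acot1, Hadha, Fabp1 and Crot also lost theirs, though library 55 was not picked out for them. Whether the high value or the smaller group ended the call of Slc25a20 was not tested. Rps19-ps6 in vehicle library 51 had 190.3 CPM, where the nearest vehicle library had 105 CPM.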

How the results depend on the processing

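The number of genes called in A was 15. It was 28 without a filter on low counts (23 higher, 5 lower), 9 with only the 2 groups of A in the model (8 higher, 1 lower), 3 with only libraries 1 to 36, and 6 to 15 over the omissions of single libraries. A term for library number range gave 17 and one for sex 16, all 15 among each, DESeq2 called 16, 14 of them shared, and libraries 37 to 60 alone called 10, 7 of them shared. The difference in response between A and WT had 8 calls without a filter and 1 in libraries 37 to 60 alone. Between A and DA there were 8 without a filter, 1 by limma-trend and 2 in libraries 37 to 60. Between A and D there were 1 by DESeq2, 10 without a filter, 1 with only the groups compared, 2 in libraries 37 to 60 and 0 to 1 over omissions. Calls on unfiltered genes rest on few counts, and the cause of the other shifts was not tested. Of the genes named, Cpt2 changed sign, to -0.10 in libraries 37 to 60 and, over the omissions, ran from -0.011 (without GW library 16) to 0.56. Eci2 and Akr1b8 passed in all 22 alternatives, Angptl4 in 21 and Hadhb in 20. Hadhb, Slc25a20, Abhd6, Acot1, Hadha, Crot, Acadl and Rps19-ps6 passed in neither range of library numbers alone. The columns carry no replicate number of the labels, but their library numbers fall into 6 sets. A replicate block of these sets, chosen after seeing the data, gave 19 calls in A, with Fabp2, Hsd17b11, Apoc2 and Creb3l3 added, 0 between A and WT, 1 between A and DA (Hadhb) and 1 between A and D (Rps19-ps6, at 0 in all GW libraries of A), and ended no call named here. The 4 pairs of A within a set had correlations of 0.244 to 0.415 between their deviations from the group means, each higher than with any other vehicle library. The depth of at most 546639 counts per library left Ppard, Cd36 and Lgr5 too sparse to test.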

Other observations

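Every GW library of A lay above every vehicle library for 22 tested genes (0.449%), 10 of which did not pass, and below for 19 (0.388%), 18 of which did not pass. With 5 libraries a side some genes separate fully by chance in either direction, and how many did so here was not tested. From those not yet described, 6 were picked for their known roles after their values were seen. None of these 6 passed (edgeR quasi-likelihood, Benjamini-Hochberg adjusted p from 0.535 to 0.999). Reg3g, an antibacterial lectin of the intestinal epithelium, had 36.2 to 63.1 CPM with GW, against 15.0 to 33.1 CPM with vehicle, a log2 fold change of 0.75. The mitochondrial ribosomal RNA mt-Rnr1 had 5471 to 9625 CPM with GW, against 3437 to 5035 CPM with vehicle (0.66), and the peroxisomal reductase Dhrs4 had 62.3 to 73.2 CPM, against 40.6 to 59.3 CPM (0.45). On the lower side, Coq9, which serves the synthesis of coenzyme Q, had 13.4 to 24.0 CPM with GW, against 24.8 to 49.1 CPM with vehicle (-0.84). Gpd2, the mitochondrial glycerol phosphate dehydrogenase, had 51.2 to 116 CPM with GW, against 124 to 154 CPM with vehicle (-0.45). Ctsa, a lysosomal carboxypeptidase, had 36.2 to 52.5 CPM with GW, against 53.7 to 74.4 CPM with vehicle (-0.55).

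Proliferation genes had 10 members higher and 13 lower with GW (median log2 fold change -0.02), the oxidative stress response 7 and 4 (median 0.06), the unfolded protein response 4 and 6 (median -0.10), the integrated stress response 1 and 4 (median -0.16) and genes of regenerating epithelium 2 and 5 (median -0.08). None of their members passed, and the median over all tested genes was 0.00.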
